A study of Mus musculus with 16 samples.

Results

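The genes described here are 8 that osteocytes, the cells embedded in mineralized bone, are known for: *Dmp1*, *Phex*, *Mepe*, *Sost*, *Fgf23*, *Pdpn*, *Fam20c* and *Kera*. They were chosen by name from a count table of 25054 genes. The table has a row for 7 of the 8, and 5 of these passed a filter on low counts that kept 15413 genes. *Kera* has no row in the table used here and is not analyzed. RNA was sequenced from 16 mouse osteosarcomas, 8 labeled KO and 8 labeled WT for *Arid1a*, a subunit of the SWI/SNF chromatin remodeling complex. All 16 tumors arose in mice of genotype OsxCreERT2+/-;p53fl/fl;Rb1fl/fl, and the KO mice were also Arid1afl/fl. The Cre is driven by the promoter of *Sp7* (Osterix), which is active in pre-osteoblasts, and was switched on with 400 ug of tamoxifen per gram at 1 month of age. Mice of both sexes were older than 6 months, and neither the sex of a tumor's mouse nor, for KO, its body site is labeled. The animal codes in the labels make 8 KO mice with 1 tumor each and 4 WT mice, of which N42 gave 4 tumors, N43 gave 2, and N215 and N25 gave 1 each. Where nothing says that tumors came from separate mice, p-values over tumors measure the spread between these tumors only.

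Osteocytes form when osteoblasts are buried in the matrix they make. On the way they switch on *Pdpn* and then *Dmp1* and *Phex*, and mature osteocytes add *Mepe*, *Sost* and *Fgf23*. Their products regulate mineral deposition, systemic phosphate and, through sclerostin, Wnt signaling in osteoblasts. In osteosarcoma, a tumor whose malignant cells lay down osteoid, transcripts of these genes can come from the malignant cells or from host bone. In bulk RNA, fewer cells of a type and less RNA per cell cannot be told apart.

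The sequences just before the starts of 4 of the genes are shown because *Dmp1* and *Phex* were lowest in the same 4 tumors, and *Mepe* and *Sost* are later genes of the same lineage. They are RefSeq promoter sequences of build GRCm38.p6, 250 bases each, written 5′ to 3′ on the strand of the gene. They lie at chr5:104202367-104202616 (*Dmp1*, plus strand), chrX:157415287-157415536 (*Phex*, minus strand), chr5:104325079-104325328 (*Mepe*, plus strand) and chr11:101967016-101967265 (*Sost*, minus strand). Capitals mark 2 motifs that a search of both strands found, the RUNX core TGTGGT (or ACCACA on the other strand) and the AT-rich TTTAAA, which reads the same on both strands.
Dmp1: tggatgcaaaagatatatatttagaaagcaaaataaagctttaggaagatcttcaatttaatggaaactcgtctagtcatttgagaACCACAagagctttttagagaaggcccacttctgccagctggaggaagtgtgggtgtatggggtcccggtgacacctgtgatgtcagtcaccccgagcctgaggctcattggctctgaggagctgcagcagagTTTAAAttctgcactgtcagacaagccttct
Phex: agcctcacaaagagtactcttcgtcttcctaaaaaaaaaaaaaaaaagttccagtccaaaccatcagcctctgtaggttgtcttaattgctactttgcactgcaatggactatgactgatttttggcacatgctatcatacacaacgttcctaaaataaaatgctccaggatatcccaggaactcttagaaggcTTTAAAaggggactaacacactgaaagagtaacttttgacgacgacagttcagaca
Mepe: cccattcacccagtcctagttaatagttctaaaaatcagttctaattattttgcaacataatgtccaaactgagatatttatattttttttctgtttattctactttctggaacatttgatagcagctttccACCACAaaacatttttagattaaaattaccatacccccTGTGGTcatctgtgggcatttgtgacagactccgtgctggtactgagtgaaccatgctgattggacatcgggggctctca
Sost: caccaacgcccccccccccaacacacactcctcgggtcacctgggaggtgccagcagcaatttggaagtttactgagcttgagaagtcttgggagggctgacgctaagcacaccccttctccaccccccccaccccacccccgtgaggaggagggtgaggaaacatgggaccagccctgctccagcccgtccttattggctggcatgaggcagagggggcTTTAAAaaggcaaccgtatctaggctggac

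TTTAAA lay before a start of 5 of the 8 genes, at 31 bases for *Dmp1*, 56 for *Phex*, 30 for *Sost*, 27 for *Fgf23* and 49 for *Pdpn*, and 12.1% of all 32851 promoters of this length held it. The RUNX core was found once before *Dmp1*, 164 bases from the start, and at 118 and 80 bases before *Mepe*. It was not found in the windows of the other genes, and 14% of all promoters held it. The AP-1 motif TGANTCA was in the windows of 0 of the 8 genes and in 6.75% of all promoters. *Dmp1* has a further annotated start upstream whose window held none of the 3 motifs. These matches describe letters in the windows and no binding was measured.

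In these counts the targeted gene did not check the labels. *Arid1a* lay between 107 and 270 CPM (counts scaled to the library size) in KO and between 125 and 236 CPM in WT, and its log2 fold change was 0.16 (SE 0.22, adjusted p = 0.715 by edgeR's quasi-likelihood test). These are counts over the whole gene, in which reads outside the floxed part and reads from cells without Cre both count. By another assay, reverse transcription PCR on tumor RNA, the study reports significantly lower *Arid1a* in its Arid1afl/fl mice. Counts on genes ranged from 1109487 to 15059640 per KO library and from 7806160 to 16962329 per WT library. A level of 3 counts corresponded to 6.69 CPM in Massa, 4.03 CPM in Grilka, 0.203 to 0.839 CPM in the other KO libraries and 0.146 to 0.340 CPM in WT. Library sizes for CPM were normalized by TMM, and such floors cover counting error only.

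Per length, *Dmp1* was the most abundant of the 7 genes, with a median of 41.6 RPKM (CPM per kilobase of exon) over the 16 tumors. The medians of *Fam20c* (6.47 RPKM), *Pdpn* (6.06 RPKM) and *Phex* (4.09 RPKM) followed, and the ranges of these 3 overlapped over most of their length. *Mepe* (0.564 RPKM), *Sost* (0.392 RPKM) and *Fgf23* (0) came last. More than 3 counts were found for *Mepe* in 4 KO and 5 WT tumors, for *Sost* in 3 KO and 6 WT tumors and for *Fgf23* in 0 KO and 3 WT tumors. The levels of the 7 genes did not mark a single set of tumors, so osteocyte is used here as a name for the genes and not for a cell population in these samples.

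**Figure D1:**
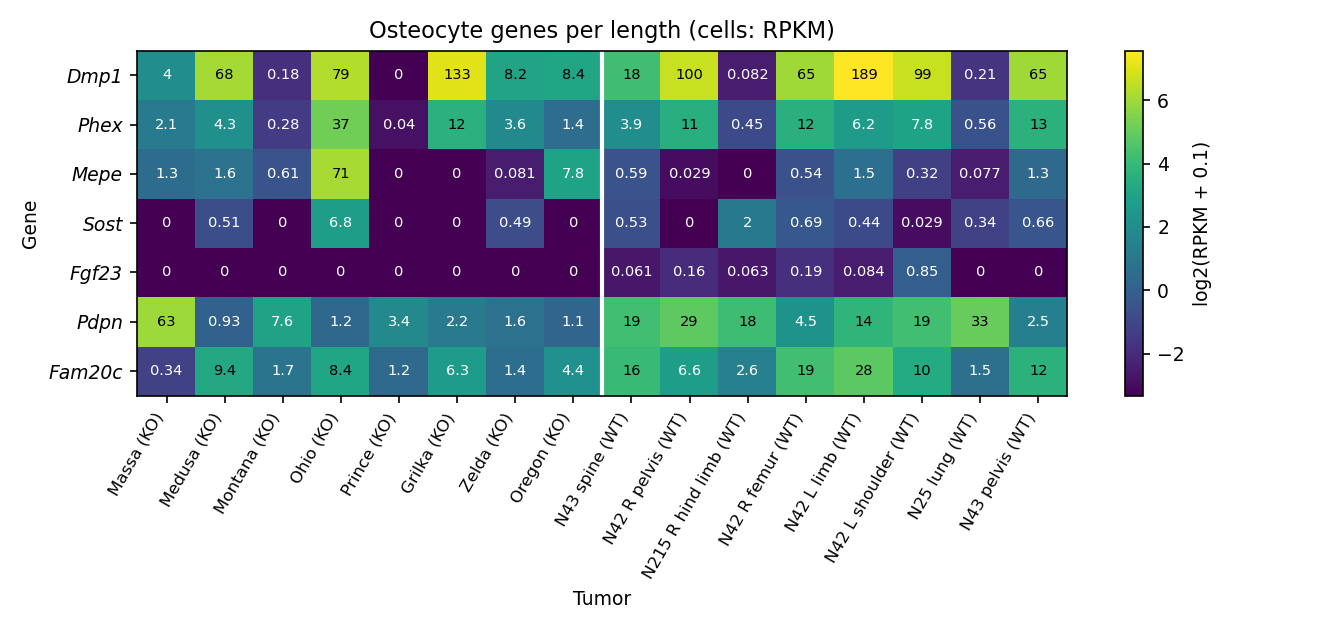
RPKM of the 7 genes (rows) in each of the 16 tumors (columns, KO left and WT right of the white line), with the color giving log2(RPKM + 0.1) and the number giving RPKM. *Dmp1* reached 133 RPKM in Grilka and 189 RPKM in N42 L limb, *Mepe* and *Sost* were highest in Ohio, and *Fgf23* was at 0 in all 8 KO tumors.

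The first comparison asked whether these genes differed between KO and WT tumors. None of the 5 tested genes was called by edgeR at an adjusted p under 0.05, where 4.01% of all 15413 genes tested were called. By DESeq2, limma-voom and edgeR on counts summed per mouse the number called was also 0, against 12.5%, 0.11% and 0.0625% of all genes. At an unadjusted p under 0.05 edgeR gave 1 of the 5, *Fam20c*, and 23% of all genes. Of the 5 fold changes 2 were positive and 3 negative. Their median was −0.84 on the log2 scale, and that of all genes tested was 0.10. The median of the 5 was −0.42 without N42 L limb, −0.018 with counts summed per mouse and 0.42 without the 4 tumors of N42. The common coefficient of biological variation was 70.4%. On simulated counts of these depths, the test recovered 45 of 95 genes changed by 2 on the log2 scale. Of genes changed by 4 it recovered 83 of 88, and it called 1 of 17153 unchanged genes. Each simulated tumor was drawn independently, while 4 of the real WT tumors shared mouse N42 and 2 shared N43. The correlation within mice was 0.76 by limma-voom, so these shares may not hold for the real tumors.

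**Figure D2:**
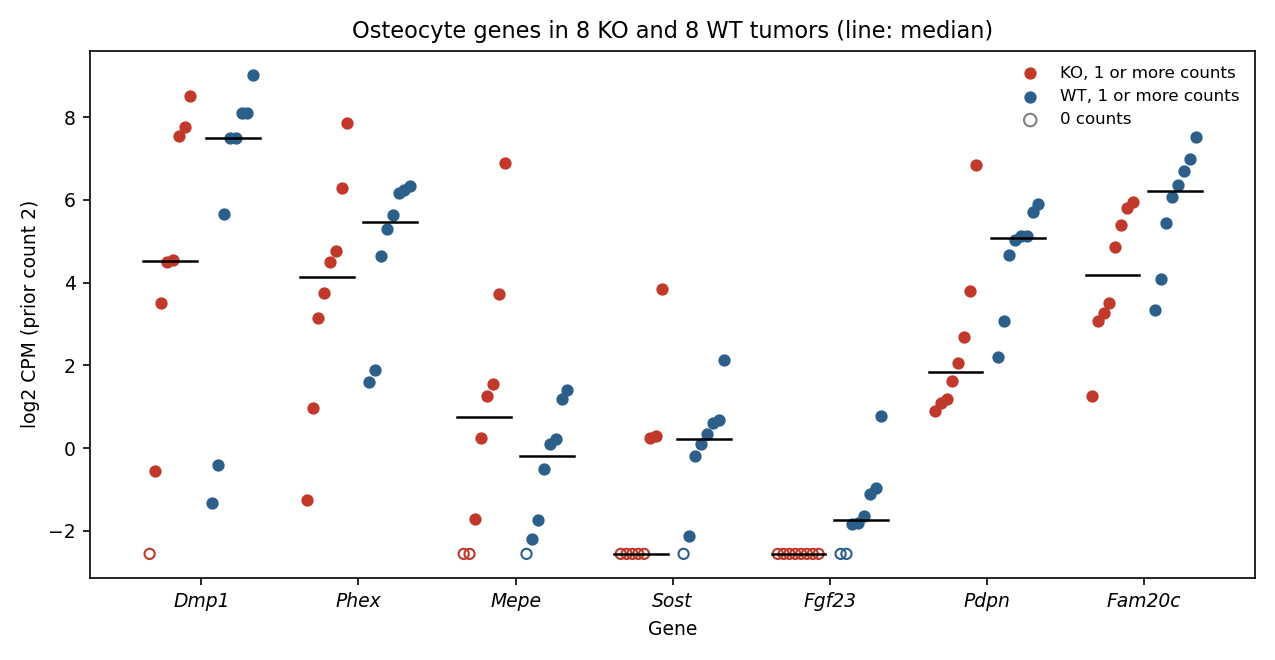
Log2 CPM (prior count 2) of each gene in 8 KO (red) and 8 WT (blue) tumors, with lines at the medians and open circles for tumors with 0 counts. The groups overlapped for all 7 genes, and *Fgf23* had 0 counts in every KO tumor and in 2 WT tumors.

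*Dmp1* encodes dentin matrix protein 1, an acidic phosphoprotein that nucleates mineral and restrains FGF23. It lies at chr5:104202613-104214102 on the plus strand, and its exons overlap those of no other gene. In KO it ranged from 0 to 367 CPM with a median of 22.9 CPM, and in WT from 0.227 to 521 CPM with a median of 179 CPM. High values were found in both groups, in Grilka (367 CPM, from 273 counts in a shallow library), Ohio (217 CPM) and Medusa (187 CPM) of KO and in all 6 tumors of N42 and N43 (50.7 to 521 CPM). Tumors nearly without it were also found in both, namely Prince (0 counts), Montana (2 counts), N215 R hind limb (2 counts) and N25 lung (9 counts). The log2 fold change was −0.84 (SE 1.3, adjusted p = 0.736 by edgeR). With the mouse taken into account the fitted value was −0.018 by edgeR on counts summed per mouse (adjusted p = 0.999) and −0.51 by limma-voom (adjusted p = 0.975), and without the 4 tumors of N42 it was 0.87 (adjusted p = 0.925). As a mean over mice, log2 CPM was 4.0 ± 4.1 in KO (SD, n = 8) and 3.2 ± 5.0 in WT (SD, n = 4), 0.84 higher in KO (exact permutation test, two-sided, p = 0.752).

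Markers of other tissues were abundant in 3 of the 4 tumors that nearly lacked *Dmp1*. All 5 salivary gland markers were detected in Prince, where they summed to 7864 CPM against 2.12 to 53.1 CPM in the other tumors. The 7 skeletal muscle markers summed to 72546 CPM in Montana and to 126110 CPM in Oregon, which had 23.2 CPM of *Dmp1*, and to at most 6781 CPM elsewhere. The 8 lung markers summed to 26894 CPM in N25 and to 12718 CPM in Massa, which had 11.2 CPM of *Dmp1*, and to at most 278 CPM elsewhere. The 10 osteoblast markers summed to 815 CPM in Prince, 2822 CPM in Montana, 3291 CPM in N25 and 5487 CPM in N215, against 3575 to 58709 CPM in the KO tumors other than Prince, Montana and Oregon (2942 CPM) and 21942 to 87777 CPM in the 6 tumors of N42 and N43. The osteocalcin genes *Bglap* and *Bglap2*, which are defining osteoblast markers, were at 0 in N215 and Massa. The part of other tissues and of the osteoblast lineage in the *Dmp1* values was not tested.

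*Phex* encodes an endopeptidase of the osteoblast and osteocyte membrane whose loss causes X-linked hypophosphatemia. It lies at chrX:157162075-157415312 on the minus strand. It ranged from 0.249 to 234 CPM in KO (median 17.9 CPM) and from 2.84 to 80.1 CPM in WT (median 44.2 CPM). The highest tumor, Ohio, was KO, and the 4 tumors that nearly lacked *Dmp1* were also the lowest for *Phex*, at 0.249 CPM in Prince, 1.79 CPM in Montana, 2.84 CPM in N215 and 3.55 CPM in N25. The groups overlapped, with a log2 fold change of 0.16 (SE 0.94, adjusted p = 0.943 by edgeR). The sign turned in 4 of 26 alternatives, with −1.07 without Ohio (adjusted p = 0.487), −0.018 without N25 (adjusted p = 0.994) and −0.50 by limma-voom (adjusted p = 0.949). Here and for the other genes, the alternatives count the fit without N25 both as the lung tumor and as a single tumor left out.

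*Dmp1* and *Phex* were followed together over mice, with counts summed per mouse. The 12 mice fell into 4 with at most 1 CPM of *Dmp1* and 8 with over 10 CPM, so no coefficient is given over all of them. Massa was among the 8 at 10.04 CPM, from 5 counts of *Dmp1* and with 6 counts of *Phex*, so its place there is uncertain. Within the 8 mice over 10 CPM, Pearson's r of log2 CPM was 0.78 (permutation p = 0.0222, adjusted over 10 pairs of genes 0.111) and Spearman's rho was 0.88 (permutation p = 0.00761, adjusted 0.0761). Without Massa and Oregon, the mice farthest from the median, r was 0.56. The relation within these mice did not pass the correction and weakened without these 2 mice. In the same 8 mice *Dmp1* and *Fam20c* had an r of 0.84 (permutation p = 0.00551, adjusted 0.0551) and a rho of 0.64 (permutation p = 0.0962, adjusted 0.481), which did not pass either, and the r was 0.78 without Massa and Oregon. Within the 8 KO mice, *Dmp1* and *Phex* had an r of 0.95 (permutation p = 0.00049, adjusted 0.0049). Their rho there was 0.95 (permutation p = 0.00113, adjusted 0.0113), so the pair passed the correction. Prince and Montana, nearly without *Dmp1*, are among these KO mice, and without them r was 0.79. The proportion of *Dmp1* to *Phex* was not constant. In the 11 tumors with at least 30 counts of each, the count of *Dmp1* per count of *Phex* ran from 0.929 in Ohio and 1.01 in Zelda to 6.98 in Medusa and 13.3 in N42 L limb, and within N42 it ran from 2.38 to 13.3.

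**Figure D3:**
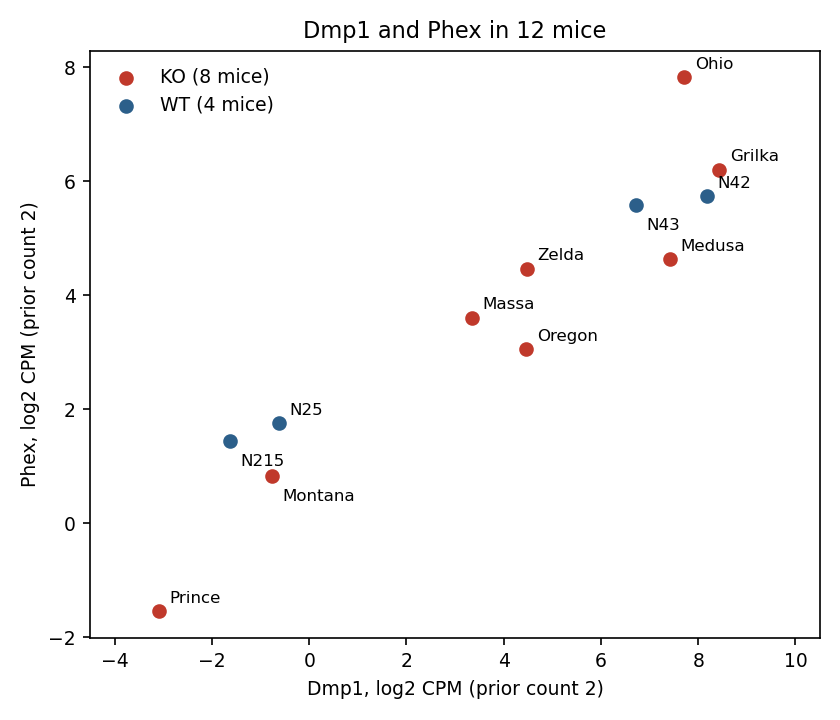
Log2 CPM (prior count 2) of *Phex* against *Dmp1*, 1 point per mouse with counts summed over its tumors, in red for 8 KO and blue for 4 WT mice. Prince, Montana, N215 and N25 lie apart at low values of both genes, and the other 8 mice of both groups lie at *Dmp1* values over 10 CPM.

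The genes most like *Dmp1* in log2 CPM over the 12 mice, among all genes tested and as a description only, were *Ibsp* (r = 0.93), *Smpd3* (r = 0.93) and *Sall1* (r = 0.92). For *Phex* they were *Ibsp* (r = 0.94), *Panx3* (r = 0.93) and *Tbx18* (r = 0.93). The points share the library and its depth, and the 4 low mice are among them. *Ibsp* encodes bone sialoprotein, and *Smpd3* a sphingomyelinase needed for bone mineralization.

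*Ibsp* and *Spp1* (osteopontin) flank *Mepe* on the chromosome 5 cluster that also holds *Dmp1*, whose members encode small integrin-binding glycoproteins of the mineralized matrix. *Ibsp* ranged from 0.166 to 3919 CPM in KO and from 3.29 to 2514 CPM in WT. It had its highest level in Grilka and its lowest in Prince, as *Dmp1* did within KO, with a log2 fold change of −0.68 (SE 1.21, adjusted p = 0.781 by edgeR). *Spp1* ranged from 13.3 to 752 CPM in KO and from 14.3 to 3340 CPM in WT, with a fold change of −2.95 (SE 0.96, adjusted p = 0.0826 by edgeR) that did not pass the threshold. Of these 2 neighbors 0 were called by edgeR and 1 by DESeq2, and 1 had an unadjusted p under 0.05, against 4.01%, 12.5% and 23% of all genes.

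*Mepe*, the matrix extracellular phosphoglycoprotein that osteocytes release as an inhibitor of mineralization, lies at chr5:104325329-104338611 on the plus strand. Nearly all KO counts came from 1 tumor. Ohio held 1245 of the 1312 KO counts, which is 118.8 CPM, and Oregon followed with 13.1 CPM. The other 6 KO tumors had 0 to 2.75 CPM and the 8 WT tumors 0 to 2.47 CPM, so that apart from Ohio and Oregon the groups overlapped. *Mepe* did not pass the filter with all tumors. Over mice the log2 CPM was 0.61 ± 3.45 in KO (SD, n = 8) and −1.14 ± 1.75 in WT (SD, n = 4), with p = 0.372 by the exact permutation test. Fitted without the filter, its log2 fold change was 4.24 (SE 1.41, adjusted p = 0.0887 by edgeR). It was called once among all the settings tried, with Zelda left out, at 4.46 (adjusted p = 0.0466), where 8.52% of all genes were called. Without Ohio it was 1.62 (adjusted p = 0.364).

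*Sost* encodes sclerostin, the osteocyte antagonist of Wnt co-receptors, and lies at chr11:101962458-101967015 on the minus strand. In KO it had 0 counts in 5 tumors, and Ohio held 148 of the 168 counts of the group, at 14.1 CPM. Medusa had 1.06 CPM and Zelda 1.02 CPM. In WT it ranged from 0 to 4.2 CPM with a median of 1.00 CPM. The highest WT tumor was N215 R hind limb, where *Dmp1* had 2 counts. The 6 cartilage markers, all detected, summed to 352 CPM in N215, against 19.5 to 534 CPM over WT, and their part was not tested. The fitted log2 fold change of *Sost* was 1.01 (SE 1.08, adjusted p = 0.614 by edgeR). It was −1.49 without Ohio and −1.47 by DESeq2, and over mice the difference was −1.74 (exact permutation test, p = 0.214), so no direction could be given for *Sost*.

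Ohio therefore held the highest levels of *Phex*, *Mepe* and *Sost* among the KO tumors, and the highest of all 16 tumors for these 3 genes. Its *Fam20c* level (55.6 CPM) was below that of Medusa alone within KO, and its *Pdpn* level was low (2.10 CPM). With 7761206 counts, its library was shallower than those of Prince and Zelda and deeper than the other 5 KO libraries.

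*Sost* acts through *Lrp4*, *Lrp5* and *Lrp6* on Wnt signaling. Of 10 genes listed for sclerostin and Wnt signaling, 7 were tested and 1 was called lower in KO by edgeR, where 2.15% of all genes were. DESeq2 called 2, of which 1 was lower. The gene called by edgeR was *Axin2*, a direct Wnt target, with 6.64 to 27.5 CPM in KO, 12.5 to 56.6 CPM in WT and a fold change on the log2 scale of −1.33 (SE 0.35, adjusted p = 0.0408). Its call was lost in 14 of 26 alternatives. It was lost when any 1 of Medusa, Ohio, Prince, Grilka, Oregon, N43 spine or the 4 tumors of N42 was left out, with adjusted p from 0.0508 to 0.0928, without all of N42 (adjusted p = 0.660), with counts summed per mouse (adjusted p = 0.598) and by limma-voom (adjusted p = 0.533). The co-receptors did not pass the test, with fold changes of −0.68 for *Lrp4*, 0.09 for *Lrp5* and −0.22 for *Lrp6*, and β-catenin (*Ctnnb1*) had −0.04.

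*Fam20c* encodes the Golgi kinase that phosphorylates secreted proteins, among them the products of *Dmp1*, *Mepe* and *Fgf23*. It lies at chr5:138754514-138810077 on the plus strand. In KO it ranged from 2.23 to 61.9 CPM with a median of 20.2 CPM, and in WT from 9.94 to 184 CPM with a median of 74.8 CPM. Both tumors of N43 and 3 tumors of N42 lay above every KO tumor, at 67.5 to 184 CPM, while N25 (9.94 CPM), N215 (16.9 CPM) and N42 R pelvis (43.7 CPM) lay within the KO range. The log2 fold change was −1.52 (SE 0.62, adjusted p = 0.156 by edgeR, unadjusted 0.0256). It stayed negative and did not pass in any of 26 alternatives, with adjusted p from 0.0877 to 0.777. Over mice the difference was −0.99 (exact permutation test, p = 0.360). Relative to the bone collagen gene *Col1a1* within each mouse the exact permutation test gave p = 0.978.

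*Fgf23* encodes the hormone by which osteocytes lower serum phosphate, and lies at chr6:127072902-127081408 on the plus strand. It had 0 counts in all 8 KO tumors and 44 counts in WT, of which 41 were in the 4 tumors of N42 and 26 in N42 L shoulder alone (1.54 CPM). N43 spine had 2 counts, N215 had 1, and N43 pelvis and N25 had 0. The KO tumors had a floor of 0.203 to 6.69 CPM, while the WT tumors other than N42 L shoulder had 0 to 0.341 CPM. The floors of 5 KO libraries lay above 0.341 CPM, so such a level was not detectable there at this depth. *Fgf23* did not pass the filter, and no fold is given. The exact permutation test over mice gave p = 0.0364, unadjusted for the 7 genes so tested, and relative to *Col1a1* p = 0.982. With every KO value at 0, the difference behind the first value depends on the prior count. Relative to *Col1a1*, the KO values vary with *Col1a1* alone, so the second value cannot show whether scaling removes a difference in *Fgf23*. N42, with 60764269 counts over its tumors, was sampled more deeply than any other mouse.

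Of 25 genes listed for phosphate and mineral handling, 22 were in the table and 15 were tested. By edgeR 4 had positive and 11 had negative fold changes, and 1 was called, lower in KO, where 2.15% of all genes were. It was *Mgp*, matrix Gla protein, an inhibitor of mineralization, with 11.6 to 73.6 CPM in KO (median 25.4 CPM) and 64.2 to 281 CPM in WT (median 208 CPM). Only N43 spine of WT lay below the highest KO tumor, Massa, and its value was just below that of Prince as well. The log2 fold change of *Mgp* was −2.33 (SE 0.42, adjusted p = 0.00899). The call was lost in 3 of 26 alternatives, limma-voom, counts summed per mouse and the fit without N42 (adjusted p = 0.280). The median fold change of the 15 was −0.70. DESeq2 called 5, all lower, where it called 12.5% of all genes. Among the abundant members, the FGF23 receptor *Fgfr1* had −2.0 (SE 0.61, adjusted p = 0.0686), the alkaline phosphatase gene *Alpl* −2.20 (SE 0.79, adjusted p = 0.111), the FGF23 protease *Furin* −0.09 and the parathyroid hormone receptor *Pth1r* 0.86, by edgeR, none past the threshold.

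*Pdpn* encodes podoplanin (E11), a membrane glycoprotein of the early osteocyte that is also abundant in lung alveolar type I cells and lymphatic endothelium. It lies at chr4:143267431-143299564 on the minus strand. It ranged from 1.69 to 114 CPM in KO (median 3.47 CPM) and from 4.46 to 59.9 CPM in WT (median 33.5 CPM). The KO maximum was Massa, with 51 counts, and the other 7 KO tumors had 1.69 to 13.8 CPM. With Massa apart, the WT tumors lay above all KO tumors except N43 pelvis (4.46 CPM) and N42 R femur (8.24 CPM). With all tumors the log2 fold change was −1.0 (SE 0.87, adjusted p = 0.522 by edgeR). Without Massa it was −2.76 (SE 0.60, adjusted p = 0.0173), a call among 6.04% of all genes. Without Massa and N25 it was −2.56 (adjusted p = 0.0242), where 7.07% were called, and without Massa and Grilka −2.76 (adjusted p = 0.0288), where 5.36% were. These were the only 3 of 26 alternatives that passed, all without Massa and with the mouse not taken into account. With all tumors, *Pdpn* had −1.12 by edgeR on counts summed per mouse (adjusted p = 0.802) and −2.52 by limma-voom (adjusted p = 0.578). Without the 4 tumors of N42 it had −1.01 by edgeR (adjusted p = 0.833). Over mice log2 CPM was 2.41 ± 1.98 in KO (SD, n = 8) and 4.90 ± 0.69 in WT (SD, n = 4), with p = 0.0444 by the exact permutation test, unadjusted for the 7 genes so tested. Relative to *Col1a1* the difference was −1.50 (exact permutation test, p = 0.473).

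Massa and N25 were also the tumors in which lung RNA was abundant. All 8 lung markers were detected in both and summed to 12718 CPM in Massa and 26894 CPM in N25, against 29.0 to 278 CPM in the other KO and 30.9 to 82.0 CPM in the other WT tumors. *Sftpc*, the defining gene of alveolar type II cells, was at 0 in 12 of those 14 tumors. The 3 lymphatic endothelial markers in the table summed to 164 CPM in N25, 100 CPM in Massa and 97.4 CPM in N42 R pelvis, the 3 tumors with the most *Pdpn*, and to at most 79.3 CPM elsewhere. Among the other tumors the order was not shared throughout. Montana had 79.3 CPM of these markers and 13.8 CPM of *Pdpn*, N43 pelvis 65.4 and 4.46 CPM, and N215 17.9 and 32.4 CPM. The part of lung or lymphatic cells in the *Pdpn* values was not tested. In the WT tumors other than N25, *Pdpn* was at 4.46 to 52.4 CPM. The genes most like *Pdpn* over the 12 mice were *Pmp22* (r = 0.92), *Ubb-ps* (r = 0.90) and *Ston1* (r = 0.89), and those most like *Fam20c* were *Gper1* (r = 0.94), *Hsd17b7* (r = 0.93) and *Ctsa* (r = 0.93), as a description.

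**Figure D4:**
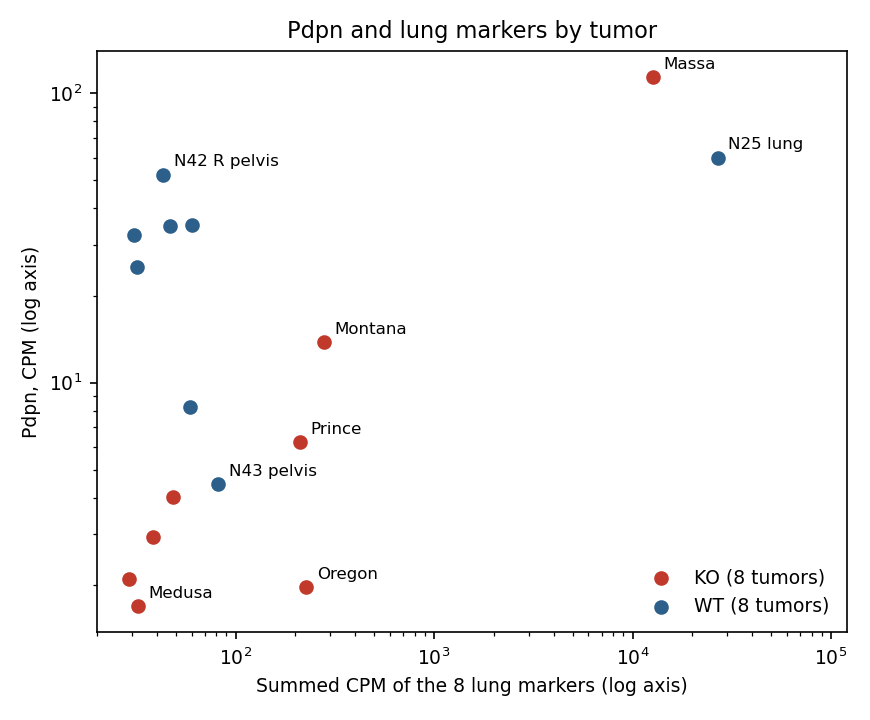
*Pdpn* in CPM against the summed CPM of the 8 lung markers in each tumor, both on log axes, in red for KO and blue for WT. Massa (114 CPM of *Pdpn*) and N25 lung (59.9 CPM) lie at 12718 and 26894 CPM of lung markers. The other WT tumors lie at 30.9 to 82.0 CPM of lung markers and 4.46 to 52.4 CPM of *Pdpn*.

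**Figure D5:**
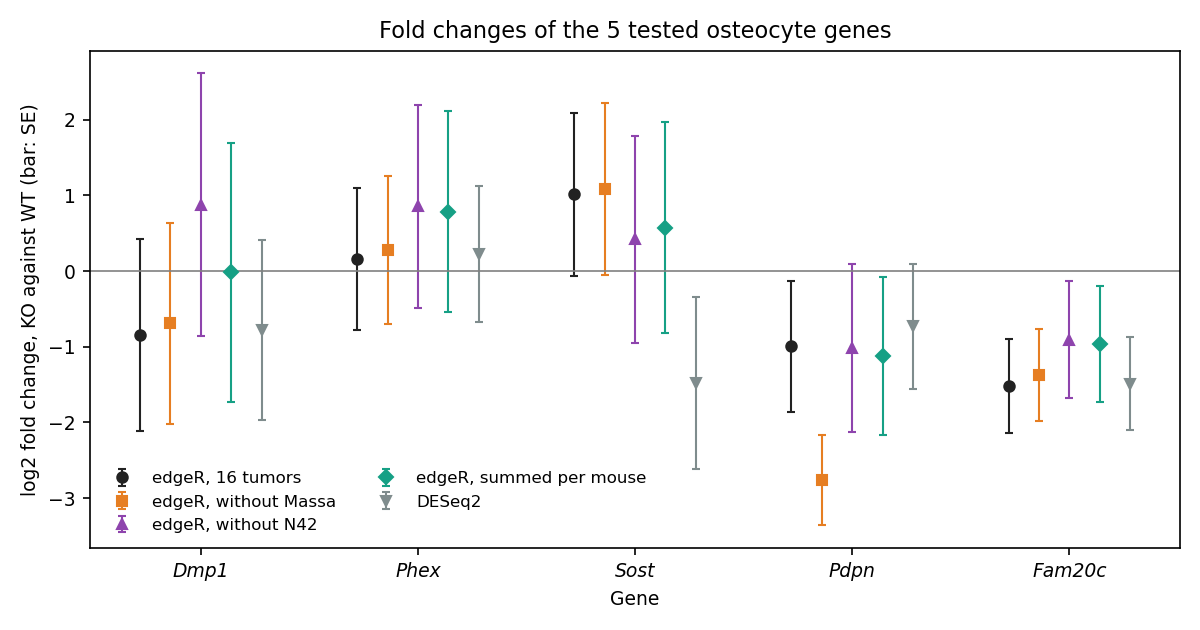
Fitted log2 fold change of KO against WT (points) with its SE (bars) for the 5 tested genes in 5 fits. Only the value of *Pdpn* without Massa, −2.76, passed the threshold among those drawn, *Dmp1* changed sign without N42, and *Sost* changed sign by DESeq2.

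*Kera* encodes keratocan, a small leucine-rich proteoglycan, and lies at chr10:97606879-97613692 on the plus strand, in a cluster with *Dcn*, *Lum* and *Epyc*, which encode proteoglycans of the same family. Of these 3 neighbors 2 were tested and 1 was called lower in KO by edgeR, where 2.15% of all genes were. It was lumican (*Lum*), with 0 to 53.9 CPM in KO and 24.8 to 755 CPM in WT. Its fold change on the log2 scale was −3.10 (SE 0.84, adjusted p = 0.0460 by edgeR). The call was lost in 18 of 26 alternatives, among them leaving out any 1 tumor except Massa, Zelda, N215 or N25 (adjusted p from 0.0502 to 0.102). It was also lost with the mouse taken into account, at −2.64 with counts summed per mouse (adjusted p = 0.404) and −1.59 by limma-voom (adjusted p = 0.817). Decorin (*Dcn*) had −0.77 (adjusted p = 0.430), and *Epyc* had under 1 CPM in every tumor.

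By their labels the WT tumors came from several sites, 3 from spine or pelvis, 4 from a limb or shoulder and 1, of N25, from lung. The study describes no metastasis in WT mice, so what the lung label of N25 means is uncertain. Sites and mice are confounded, and 3 tumors against 4 cannot reach a two-sided p below 0.0571, so no test was made. *Dmp1* had 50.7 to 276 CPM at spine or pelvis and 0.227 to 521 CPM at limb or shoulder. The low end of the second range was N215, and within N42, 3 limb or shoulder tumors had 179 to 521 CPM and the pelvic tumor 276 CPM. Between the pelvic and the spinal tumor of N43, *Dmp1* differed 3.55-fold, *Phex* 3.25-fold, *Pdpn* 7.84-fold with the spine higher, and *Fam20c* 1.27-fold. Over the 4 tumors of N42 the highest per lowest was 2.91 for *Dmp1*, 1.93 for *Phex*, 4.21 for *Fam20c* and 6.36 for *Pdpn*. *Dmp1* and *Fam20c* were highest in L limb, *Phex* in R femur and *Pdpn* in R pelvis, so the order of the tumors was not shared by the genes.

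Other genes of the lineage were read from the same fit for context, and their counts are to be read against the 4.01% of all genes that edgeR called, the 12.5% that DESeq2 called and the 23% with an unadjusted p under 0.05. Of 12 other genes known from osteocytes, all were tested, 0 were called by edgeR and 2 by DESeq2, 4 had an unadjusted p under 0.05 and the median fold change was −0.67. Among the abundant ones, *Mmp14* had −1.60 (adjusted p = 0.112), *Mef2c* 0.82 (0.300), *Gja1*, the connexin of osteocyte processes, −0.98 (0.313) and *Dstn* −0.23 (0.789). Of 10 osteoblast markers 0 were called by edgeR and 3 by DESeq2, 3 had an unadjusted p under 0.05, and the median was −0.86. *Col1a1* had −1.27 (adjusted p = 0.472), *Col1a2* −1.46 (0.354) and *Sparc* −2.13 (0.0881). All 6 macrophage markers tested were called lower, with a median of −2.16 and *C1qa* at −2.30 (adjusted p = 0.00476), where 2.15% of all genes were, and DESeq2 called all 6. By limma-voom, and by edgeR on counts summed per mouse, 0 of the 6 were called. Of 6 osteoclast markers 0 were called by edgeR or DESeq2 and 3 had an unadjusted p under 0.05, with a median of −2.21. By edgeR none was called of 5 tendon (median −0.45), 3 lymphatic (0.29), 4 lung (0.99), 7 muscle (3.29), 1 salivary gland (3.86) and 5 cartilage markers (0.21), of which 2 tendon and 1 salivary gland marker had an unadjusted p under 0.05 and DESeq2 called 1 tendon, 1 lung and 1 cartilage gene. Of 5 tooth genes only *Odam* was in the table, with counts in Prince alone.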

How the data were processed

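RNA of 16 tumors was sequenced in 50 cycles from one end after removal of ribosomal RNA. The authors aligned the reads with Novoalign 2.08.01 to mm10 with Ensembl splice junctions, allowed many alignments per read, kept the best ones and counted reads per gene with USeq, which calls DESeq2 1.26.0. The values they deposited are these counts without normalization, whole numbers for 25054 genes, and 0 other sample columns were left unused. Strand is not given in the sources used here. Reads of near-identical genes may be split, and the exons of the 8 genes overlap those of no other annotated gene.

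edgeR 4.0.16 in R 4.3.3 (TMM, filterByExpr with a minimum count of 10 and total of 15, glmQLFit, glmQLFTest) fitted KO against WT on all 16 tumors without covariates, with Benjamini-Hochberg adjustment over all 15413 genes tested and a threshold of 0.05. Tests were two-sided. Log2 CPM used a prior count of 2. DESeq2 1.42.0, limma 3.58.1 (voom, mouse as a random effect), other filters, scalings and left-out tumors were alternatives, and the test was tried on simulated counts. Exact permutation tests used all 495 splits of 8 KO and 4 WT mice, with a smallest p of 0.00404. Correlations used 100000 resamples. Permutations ran in scipy 1.17.1 under Python 3.11.15, and plots were drawn with matplotlib 3.10.9. Lengths and positions are from GENCODE vM21 (GRCm38, the same assembly as mm10), in which 24997 of the genes were found by identifier, and promoters from RefSeq. Named were the 8 genes, *Arid1a*, the called and at most the 4 most abundant other members of each list, and the 3 genes most like each member over 1 CPM in at least 8 tumors. *Bglap*, *Bglap2* and *Sftpc* were named as defining markers. The members and lists were chosen with earlier results of these data known. No batch is given in the labels.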

Additional observations from a re-analysis of the deposited data

Results flagged for a closer look

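In groups of 8 tumors, 13 combinations of gene and group were examined for a tumor far from the others, and chance marks about 1 in 20 groups. Among the 13, 1 was found, which is near that rate. *Sost* in Ohio, at 14.1 CPM or 3.84 on the log2 CPM scale, was the highest KO tumor, and its gap to the next tumor was 0.554 of the whole range of the group. In this group 5 tumors were tied at 0 counts, where the prior count sets the value and so the range. The rate of 1 in 20 therefore need not hold for it. Ohio was also the highest tumor for *Phex* (234 CPM) and *Mepe* (118.8 CPM), and its part in the fold changes of these genes is given with them.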

How the results depend on the processing

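No paired analysis was possible because no mouse gave tumors to both groups. With all tumors edgeR called 618 genes, against 2517 by DESeq2, 17 by limma-voom, 10 with counts summed per mouse, 8 without N42, 1111 without Massa and N25, and 372 without Montana and Oregon. With single tumors left out, between 252 (without N42 L shoulder) and 1348 (without Zelda) were called. Of the osteocyte genes 0 were called, with 1 (*Pdpn*) without Massa and Grilka, 1 (*Pdpn*) without Massa and N25, and 0 to 1 with single tumors left out, where the 1 was *Pdpn* without Massa and *Mepe* without Zelda. The fold change of *Dmp1* turned to 0.87 without N42. That of *Phex* turned to −0.50 by limma-voom and −0.018 without N25, and ranged from −1.07 to 0.35 with single tumors left out. That of *Sost* turned to −1.47 by DESeq2 and −0.59 by limma-voom, and ranged from −1.49 to 1.65. *Fam20c* kept its direction and did not pass in all 26 alternatives. Of the phosphate and mineral list 1 was called, with 5 by DESeq2, 0 by limma-voom, 0 with counts summed per mouse, 0 without N42, 3 without N25, 3 without Massa and N25, and 1 to 3 with single tumors left out. Over mice 2 genes, *Pdpn* and *Fgf23*, had p under 0.05 by the exact permutation test, and 0 relative to *Col1a1*. For *Fgf23*, at 0 counts in every KO mouse, the KO values so scaled vary with *Col1a1* alone and decide nothing about *Fgf23*. Among 10 pairs of genes 1 Pearson correlation, of *Dmp1* and *Phex*, passed the correction over 12 mice, 3 over tumors and 0 within the 8 mice over 10 CPM of *Dmp1*. By Spearman's rho, *Dmp1* and *Fam20c* passed over 12 mice as well (permutation test, adjusted p = 0.0427). The mice nearly without *Dmp1* are among the 12. Within the 8 KO mice, *Dmp1* with *Phex* passed by Pearson's r (permutation test, adjusted p = 0.0049) and by rho (adjusted p = 0.0113). There *Pdpn* with *Fam20c* passed by Pearson's r, at −0.86 (permutation test, adjusted p = 0.031), but not by rho (adjusted p = 0.136). The cause of these shifts was not tested. The fits without Massa and N25 or without Montana and Oregon, the scaling to *Col1a1* and the restriction to 8 mice were chosen after seeing the data. The depth of Massa and Grilka limits what can be said of genes under about 6.69 CPM there.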
